A study of Rattus norvegicus with 9 samples.

Results

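The JAK-STAT pathway carries cytokine signals from the cell surface to the nucleus, and 10 of its genes were followed in microglia sorted from the retinas of diabetic and control rats. They were chosen by name and role: the cytokines Il6 and Osm, the kinases Jak1 and Jak2, the transcription factors Stat3, Stat5a and Stat6, and the feedback inhibitors Socs1, Socs3 and Cish. All 10 were among the 28343 rows of the gene count table, 9 of them were among the 11748 genes that passed the filter on low counts, and Cish did not pass it. The rats were Dark Agouti, an inbred strain. The diabetic group of 4 libraries (numbered 1, 2, 4 and 5) came from animals given streptozotocin, a toxin of insulin-producing cells, at 55 mg/kg when 8 to 10 weeks old. The control group of 5 libraries (numbered 1, 3, 4, 5 and 6) came from animals of that age given only citrate buffer. Both groups had fasted for 12 hours before the injection, and retinas were taken 4 weeks after it. Diabetic animals whose blood glucose passed 30 mmol/l also received 2 units of insulin, and which animals did is not given in the labels. The labels count 5 control and 4 diabetic rats without saying outright that each library is a separate animal, so the p-values measure only the spread between these libraries.

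In this pathway a cytokine brings together receptor chains that hold Janus kinases on their inner side, and the kinases phosphorylate each other, the receptor and STAT proteins. Paired STATs then enter the nucleus and switch on genes, among them those of the SOCS family, whose products bind the receptors or kinases and end the signal. Cytokines of the IL-6 type, such as interleukin-6 and oncostatin M, signal through the shared receptor chain gp130 and mainly through STAT3, while interleukin-4 signals through STAT6. In microglia, the resident macrophages of the retina, these genes are known to respond quickly to injury and to inflammatory stimuli.

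The cells were sorted on CD11b after digestion of the retina with papain, and CD11b is also carried by other myeloid cells. Of the microglia list, 14 of 15 genes with a row had counts and Siglech was at 0, and the list held 3.02% to 4.15% of the counts. A Muller glia and astrocyte list held 1.08% to 1.77% of the counts and a photoreceptor list up to 0.184%. A vascular list held up to 0.0373% and a lymphocyte list up to 0.0996%, and the ranges of both groups overlapped for each of these. Most of the Muller glia and astrocyte share was Apoe, at 11461.5 CPM (control) and 10817.7 CPM (diabetic), while Gfap was at 2.69 and 3.38 CPM. Most of the lymphocyte share was Cd4 (891 and 879 CPM), and Cd3d, Cd3g, Ms4a1, Nkg7 and Klrb1 were at 0. These shares are therefore weak measures of other cells. Total counts ran from 6228756 (diabetic 4) to 11332823. Controls 4 and 6 stood apart from the other controls: a list of cell isolation genes, made of immediate-early and heat shock genes that respond to dissociation, held 2.37% and 2.84% of their counts. That share was 0.438% to 0.984% in controls 1, 3 and 5 and 1.29% to 2.11% in the diabetic libraries. For the 10 genes, a log2 fold change that turned or moved by over 1.5 times without controls 4 and 6 is therefore also given without them. Levels below are normalised CPM, counts scaled to the library total and the TMM factor, and they are compared between libraries and not between genes. Log2 fold changes (log2FC) are diabetic minus control, and adjusted p-values come from edgeR's quasi-likelihood test, corrected over all 11748 genes, with a threshold of 0.05. In bulk RNA, fewer cells of a type and less RNA per cell cannot be told apart.

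No gene of the 10 passed the threshold, which 8 of all tested genes (0.0681%) did. The widest contrast between libraries was that of Osm, from 12.0 to 260 CPM within the control group, and the groups stood clear of each other for Jak1 and Stat6, with all 4 diabetic libraries below all 5 controls. Of the 9 tested genes, 8 had log2FCs below 0, as did 49.7% of all tested genes, and their median was -0.34, against 0.0017 over all tested genes. That lean depended on the fit. Without controls 4 and 6, 4 of the 9 were below 0, as were 50.6% of all tested genes, and the median was 0.021. With the cell isolation share as covariate and all libraries kept, 8 of the 9 were below 0, with a median of -0.54. In that fit 48.1% of all tested genes were below 0, with a median of 0.016. With all libraries and no covariate, 3 of the 9 (Jak1, Jak2 and Stat6) were lower in diabetic libraries at an unadjusted p below 0.05. So were 10.0% of all tested genes, and 0 of the 9 were higher, where 8.94% of all were. Groups that did not overlap, with diabetic below, were found for 2 of the 9 and for 4.16% of all tested genes. With diabetic above they were found for 0 of the 9 and for 4.27%, which together makes 8.44% of all tested genes.

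**Figure D1:**
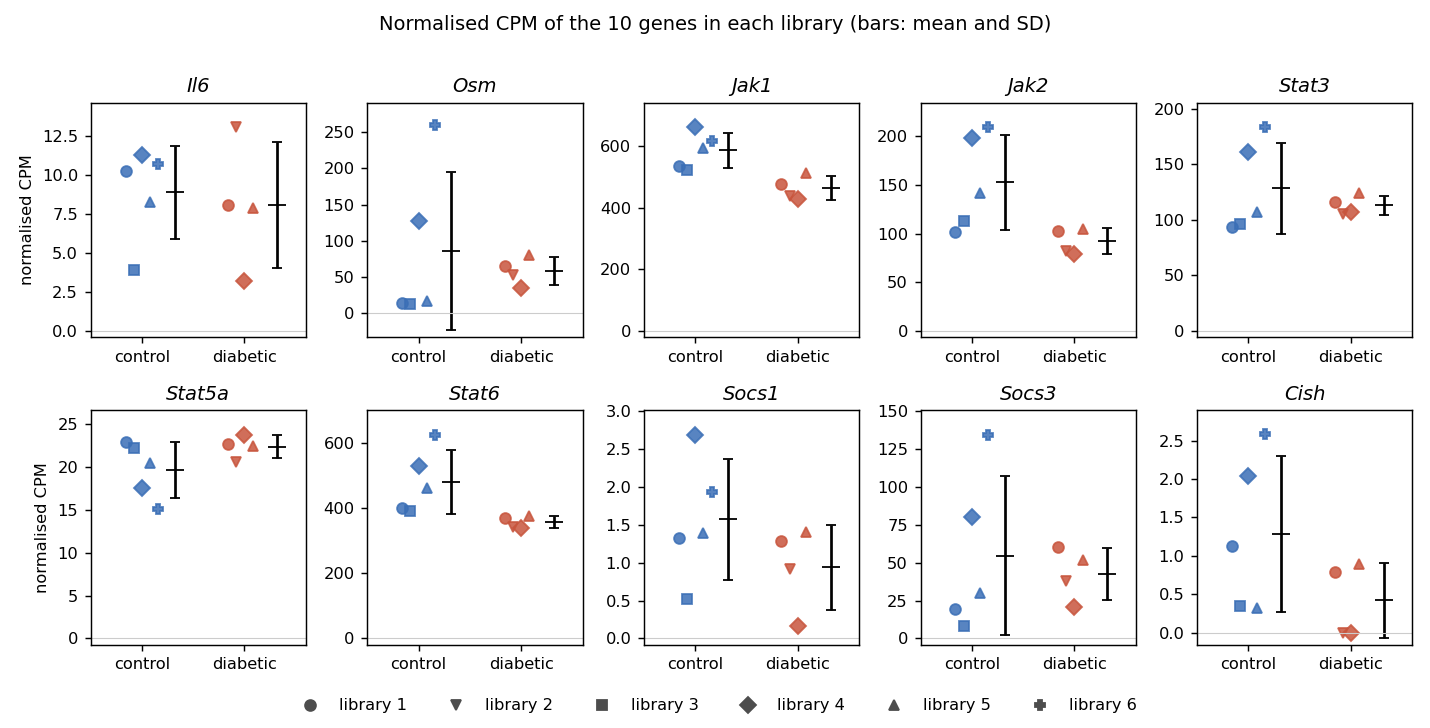
Normalised CPM (linear axes with a line at 0, one panel per gene) of each library, by group. Marker shapes give the library number and bars give the mean and SD. Jak1 and Stat6 show diabetic points below every control point, while controls 4 and 6 stand highest for Osm (128 and 260 CPM), Socs3 (80.5 and 134 CPM) and Jak2 (198 and 209 CPM) and lowest for Stat5a (17.5 and 15.1 CPM).

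Il6, the gene of interleukin-6, was low in every library. Control libraries 1, 3, 4, 5 and 6 had 10.3, 3.91, 11.3, 8.25 and 10.7 CPM, and diabetic libraries 1, 2, 4 and 5 had 8.11, 13.1, 3.19 and 7.91 CPM, on 20 to 128 counts. The highest and the lowest library were both diabetic, so the groups overlapped fully. The means were 8.89 ± 3.01 CPM (SD, n = 5) for control and 8.07 ± 4.04 CPM (SD, n = 4) for diabetic, a log2FC of -0.12 (SE 0.39, edgeR adjusted p = 0.884). Controls 4 and 6, so high for Osm, were not set apart for Il6. Without them the log2FC of Il6 was 0.12 (edgeR adjusted p = 0.925).

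Osm encodes oncostatin M, an IL-6 type cytokine made by activated macrophages and neutrophils. Its locus in the deposited assemblies is chromosome 14, 84465515 to 84470409, plus strand (Rnor6, ENSRNOG00000024390). Controls 1, 3 and 5 had 13.8, 12.0 and 15.96 CPM, whereas controls 4 and 6 had 128 and 260 CPM. Diabetic libraries 1, 2, 4 and 5 had 65.1, 52.9, 34.3 and 80.6 CPM and so filled the gap between those control levels. Over all libraries the means were 85.8 ± 109 CPM (SD, n = 5) and 58.2 ± 19.6 CPM (SD, n = 4), and the log2FC of -0.55 (SE 1.08, edgeR adjusted p = 0.799) was smaller than its own SE. The SD of log2 CPM of Osm between controls was at or above that of 99.4% of tested genes, with a 21.7-fold range. Between diabetic libraries the range was 2.35-fold.

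Without controls 4 and 6 the direction of Osm turned. The mean of the remaining controls was 13.9 ± 1.99 CPM (SD, n = 3), and all 4 diabetic libraries lay above them, as for 7.87% of the genes tested in that fit (diabetic below for 7.10%). The log2FC was then 2.06, with an unadjusted p of 3.82e-05 and an edgeR adjusted p of 0.0585, still short of the threshold. By unadjusted p Osm was the gene at place 5 of 11902. These controls were set aside because earlier results of these data had set them apart, so the value describes the dependence on those libraries and is no independent evidence of a higher level in diabetes. With the cell isolation share as a covariate and all libraries kept, the log2FC of Osm was -0.54 (edgeR adjusted p = 0.362).

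The order of the libraries by Osm nearly repeated their order by cell isolation share, in which only the neighbours diabetic 1 and 2, and controls 1 and 5, changed places. Markers of neutrophils also moved with the group. The neutrophil list, with 9 of 12 genes detected and Lcn2, Ltf and Mpo at 0, held 8.74e-05% to 0.00128% of control counts and 0.00221% to 0.00822% of diabetic counts. Controls 4 and 6, with the highest Osm, had only 0.000120% and 0.000184% of their counts on it. The part of cell isolation and of neutrophils in the level of Osm was not tested.

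**Figure D2:**
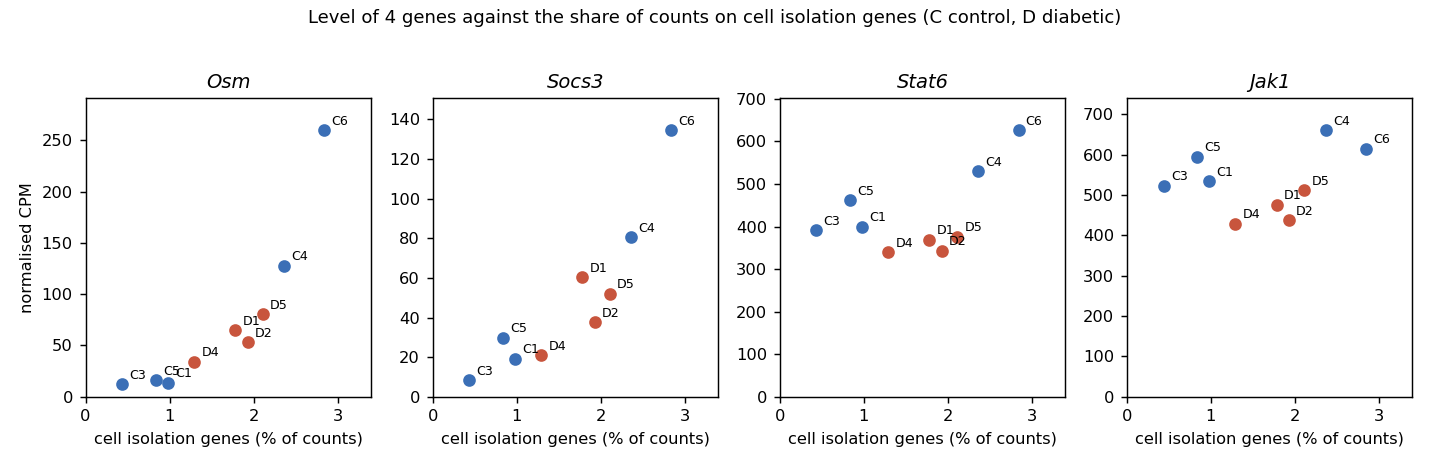
Normalised CPM of Osm, Socs3, Stat6 and Jak1 (y axes from 0) against the percent of counts on cell isolation genes (x axis), one point per library, blue for control (C) and red for diabetic (D). Osm and Socs3 climb with the share across both groups, up to 260 and 134 CPM in control 6, while for Stat6 and Jak1 the diabetic points at 1.29% to 2.11% lie below controls on both sides of them.

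The assemblies gave a second reading of the same libraries. Transcripts assembled over the Osm locus on either strand summed to 5.51, 6.29, 57.6, 10.2 and 145 TPM in controls 1, 3, 4, 5 and 6 and to 28.1, 28.8, 16.2 and 42.5 TPM in diabetic libraries 1, 2, 4 and 5. This kept controls 4 and 6 highest and controls 1, 3 and 5 lowest. A transcript carrying the name of Osm was assembled in only 3 of the 9 libraries, so these are sums over the locus. Assembled transcripts lay on both strands there, and the strand setting of the counts is not given in the sources used here, so counts of a gene and of anything antisense to it may be mixed or part of the reads may be missing.

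Of the receptors, the chains that receive interleukin-6 were well covered and differed by less than their spread. Il6st, the gene of gp130, had means of 1216 CPM (control) and 1054 CPM (diabetic) (log2FC -0.21, edgeR adjusted p = 0.483). Il6r, which gives the specificity for interleukin-6, was at 341 and 337 CPM (log2FC -0.014, edgeR adjusted p = 0.962). The receptor partners for oncostatin M and its relative LIF were near the limit of detection. Osmr had 0 to 5 counts per library and 19 counts in all, and it did not pass the filter. Lifr had 4 to 45 counts, with group means of 1.07 CPM (control) and 2.65 CPM (diabetic), a log2FC of 1.31 (SE 0.59, edgeR adjusted p = 0.207).

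Across the 19 receptor genes fixed as a list, 16 were tested and 0 passed the adjusted threshold, and 3 (higher) and 2 (lower) had an unadjusted p below 0.05, against 8.94% and 10.0% of all tested genes. Csf2ra, the specific chain of the GM-CSF receptor, came closest. Its control libraries ran from 14.96 to 18.8 CPM and its diabetic ones from 20.8 to 43.2 CPM, a log2FC of 1.00 (SE 0.26, edgeR adjusted p = 0.0620), and it was past the threshold in 8 of 22 alternative fits. Ifngr2, a chain of the interferon-gamma receptor, had controls at 266 to 288 CPM and diabetic libraries at 318 to 397 CPM (log2FC 0.36, SE 0.11, edgeR adjusted p = 0.0895). Its partner Ifngr1 was at 2256 and 2403 CPM and had a log2FC of 0.091 (edgeR adjusted p = 0.707). The neutrophil shares given above, and a border and blood myeloid list at 0.0456% to 0.0847% of control and 0.0802% to 0.157% of diabetic counts (9 of 10 genes with a row detected, Ccr2 at 0), moved with the group, and their part in Csf2ra, Ifngr2 and Lifr was not tested.

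Jak1 encodes the kinase held by gp130 and by the receptors of interleukin-4 and the interferons. It was at 534, 523, 661, 595 and 615 CPM in controls 1, 3, 4, 5 and 6 and at 476, 438, 429 and 513 CPM in diabetic libraries 1, 2, 4 and 5. Every diabetic value was under every control value, but by a narrow margin, since diabetic 5 was 513 CPM and control 3 was 523 CPM. The means were 586 ± 57.1 CPM (SD, n = 5) and 464 ± 38.2 CPM (SD, n = 4). The log2FC was -0.34 (SE 0.12), with an unadjusted p of 0.00462 and an edgeR adjusted p of 0.123.

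Jak2, the kinase of the receptors for interferon-gamma, GM-CSF and several hormones, had 101, 113, 198, 142 and 209 CPM in controls 1, 3, 4, 5 and 6. Diabetic libraries 1, 2, 4 and 5 had 103, 82.4, 78.6 and 104 CPM. The groups overlapped only through control 1, which lay below diabetic 1 and 5. The means were 153 ± 49.0 CPM (SD, n = 5) and 92.0 ± 13.4 CPM (SD, n = 4), a log2FC of -0.73 (SE 0.27) with an edgeR adjusted p of 0.139. Controls 4 and 6 carried much of this size, and without both of them the log2FC was -0.37 (edgeR adjusted p = 0.246).

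The remaining kinases of the family differed little. Tyk2, which pairs with Jak1 at many of these receptors, was at 117 and 119 CPM (log2FC 0.025, edgeR adjusted p = 0.915). Jak3, the kinase of the common gamma chain receptors, was at 91.3 and 87.0 CPM (log2FC -0.070, edgeR adjusted p = 0.660). Whether Jak1 and Jak2 differed from Tyk2 and Jak3 was not tested.

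Stat6, the transcription factor of interleukin-4 and interleukin-13 signals, gave the clearest separation of the STAT genes. Its reference transcripts span chromosome 7, 70946228 to 70964484, plus strand (Rnor6, ENSRNOG00000025023). Controls 1, 3, 4, 5 and 6 had 400.1, 391, 530, 463 and 626 CPM, and diabetic libraries 1, 2, 4 and 5 had 369, 343, 340.3 and 376 CPM. The diabetic libraries were tightly grouped below every control, and controls 4 and 6 were again the highest. The means were 482 ± 97.9 CPM (SD, n = 5) and 357 ± 18.3 CPM (SD, n = 4), a log2FC of -0.43 (SE 0.16) with an edgeR adjusted p of 0.131. Without controls 4 and 6 it was -0.24 (edgeR adjusted p = 0.274). The SD of log2 CPM between diabetic libraries was 0.074, and 6.03% of tested genes had as low a value.

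Stat3, the main transcription factor of IL-6 type cytokines, did not separate the groups. It was at 94.0, 96.6 and 107 CPM in controls 1, 3 and 5, at 161 and 184 CPM in controls 4 and 6, and at 116, 106, 107 and 124 CPM in diabetic libraries 1, 2, 4 and 5. The diabetic libraries lay below controls 4 and 6 and above controls 1 and 3, and diabetic 2 lay just below control 5. The log2FC was -0.18 (SE 0.21, edgeR adjusted p = 0.636), and without controls 4 and 6 it was 0.18 (edgeR adjusted p = 0.412).

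Stat5a, a transcription factor of GM-CSF and growth hormone signals, was the only tested gene of the 10 with a log2FC above 0. Controls 1, 3, 4, 5 and 6 had 23.0, 22.2, 17.5, 20.5 and 15.1 CPM, and diabetic libraries 1, 2, 4 and 5 had 22.7, 20.6, 23.8 and 22.4 CPM. Here controls 4 and 6 were the lowest. The log2FC of 0.18 (SE 0.15, edgeR adjusted p = 0.490) was 0.021 without them. Its near copy Stat5b, which lies close in sequence so that reads can be shared, was at 45.4 and 44.7 CPM (log2FC -0.020, edgeR adjusted p = 0.937). Stat2, a transcription factor of interferon signals, was at 231 and 213 CPM (log2FC -0.11, edgeR adjusted p = 0.540). Stat4 had no row in the table.

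**Figure D3:**
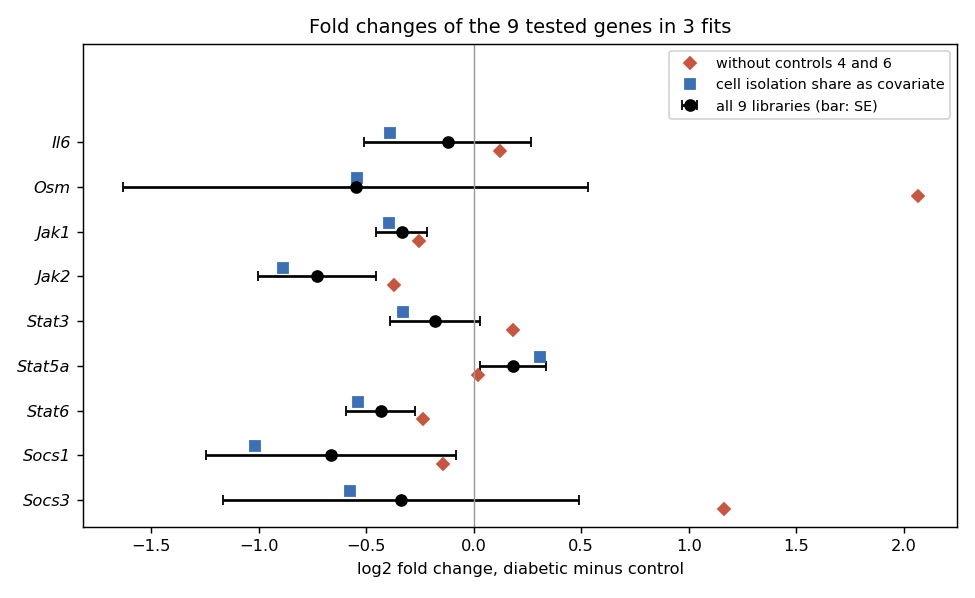
Log2FCs (x axis, diabetic minus control) of the 9 tested genes, with black points and SE bars for all libraries, red diamonds without controls 4 and 6 and blue squares with the cell isolation share as covariate. Jak1, Jak2, Stat6 and Socs1 stay below 0 in the 3 fits, and Stat5a stays above 0. Osm goes from -0.55 to 2.06 and Socs3 from -0.34 to 1.16 when controls 4 and 6 are left out.

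The SOCS genes are themselves switched on by STATs. The stretches before Cish (the gene of the SOCS protein CIS) and Socs1 are shown because they hold letters that many STAT pairs bind. Many STAT pairs bind elements built on TTCNNNGAA, a motif that is its own reverse complement. Elements with another spacing between TTC and GAA were not searched. Promoter sequences (RefSeq, build GRCr8) were found for 8 of the 10 genes, and the 250 bases before each start were searched. The motif was present in 2 of the 8, Socs1 and Cish, and in 7.67% of the 33469 promoters of the table. For the others, Socs3 among them, its absence speaks only of these 250 bases. Elements farther away, or before another start of the gene, were not searched. Cish held 4 copies, as did only 2 promoters in all. The runs for these genes, 5′ to 3′ in the direction of the gene with the motif in capitals, lie at chr8:116850719-116850968 (plus strand) for Cish and chr10:5389324-5389573 (plus strand) for Socs1.
Cish: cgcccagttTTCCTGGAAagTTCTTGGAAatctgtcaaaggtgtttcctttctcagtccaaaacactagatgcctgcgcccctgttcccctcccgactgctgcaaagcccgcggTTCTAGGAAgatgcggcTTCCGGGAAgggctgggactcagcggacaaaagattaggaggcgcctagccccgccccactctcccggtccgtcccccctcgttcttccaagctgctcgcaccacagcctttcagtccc
Socs1: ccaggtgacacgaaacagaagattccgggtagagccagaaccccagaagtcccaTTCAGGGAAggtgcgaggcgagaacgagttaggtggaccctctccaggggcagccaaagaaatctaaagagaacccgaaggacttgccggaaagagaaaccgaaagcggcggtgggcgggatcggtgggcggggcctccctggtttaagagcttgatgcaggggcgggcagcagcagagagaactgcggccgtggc
In Cish the copies lie in pairs, TTCCTGGAA and TTCTTGGAA at 241 and 230 bases before the start and TTCTAGGAA and TTCCGGGAA at 136 and 119 bases. The single copy before Socs1 is TTCAGGGAA, 196 bases before the start. A match is a description of the letters and not a measured binding site.

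Cish, with the most copies, had few counts in these cells. There were 12, 4, 19, 3 and 20 counts in controls 1, 3, 4, 5 and 6, and 8, 0, 0 and 9 counts in diabetic libraries 1, 2, 4 and 5. A count of 0 allows up to 0.307 CPM in diabetic 2 and 0.478 CPM in diabetic 4, for counting error only. The highest values were again those of controls 4 and 6, at 2.04 and 2.58 CPM. The group sums were 58 and 17 counts, and since Cish did not pass the filter it has no test here.

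Socs1, the inhibitor of interferon signals, also had few counts. It had 14, 6, 25, 13 and 15 counts in controls 1, 3, 4, 5 and 6 and 13, 9, 1 and 14 counts in diabetic libraries 1, 2, 4 and 5. Control 4 was highest and diabetic 4, the shallowest library, was lowest. The means were 1.57 ± 0.803 CPM (SD, n = 5) and 0.941 ± 0.560 CPM (SD, n = 4), and the log2FC of -0.66 (SE 0.58, edgeR adjusted p = 0.516) did not pass the threshold. It was -0.14 without controls 4 and 6 (edgeR adjusted p = 0.942), -0.38 without control 4 alone and -0.37 without diabetic 4. Its locus is chromosome 10, 4957326 to 4958461, plus strand (Rnor6, ENSRNOG00000002568).

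Socs3, the inhibitor that acts on gp130 and ends IL-6 type signals, had the most counts of the 3 SOCS genes and behaved like Osm. Its reference transcript lies on chromosome 10, 106975178 to 106976040, minus strand (Rnor6, ENSRNOG00000002946). Controls 1, 3 and 5 had 19.3, 8.34 and 29.9 CPM and controls 4 and 6 had 80.5 and 134 CPM. Diabetic libraries 1, 2, 4 and 5 had 60.4, 37.6, 20.9 and 51.95 CPM, again between the high and the low controls, although control 5 lay above diabetic 4. The means were 54.5 ± 52.6 CPM (SD, n = 5) and 42.7 ± 17.3 CPM (SD, n = 4), a log2FC of -0.34 (SE 0.83, edgeR adjusted p = 0.846). Without controls 4 and 6 it was 1.16, with an unadjusted p of 0.0717 and an edgeR adjusted p of 0.376. The control range was 16.1-fold, and the SD of log2 CPM was at or above that of 98.7% of tested genes. Summed over both strands of the locus, the assemblies held 74.0 and 114 TPM in controls 4 and 6, 10.7 to 29.0 TPM in the other controls and 10.8 to 52.4 TPM in diabetic libraries. A transcript carrying the name of Socs3 was assembled in 6 of the 9 libraries.

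TPM is scaled by transcript length, so it also allows levels to be set side by side between genes. Socs1 was listed at 0 to 0.677 TPM in every library, far below Socs3 (10.7 to 114 TPM) and Stat6 (50.7 to 85.01 TPM on its own strand). Its TPM did not follow its counts, since control 4, with the most counts (25), was at 0 TPM. The Socs1 means were 0.293 TPM (control) and 0.386 TPM (diabetic), the reverse of their order in CPM. The ranges of Osm (5.51 to 145 TPM), Socs3 and Stat6 overlapped, so these 3 were not ordered. Sums for Osm, Socs1 and Socs3 took in both strands and transcripts without the gene's name. For Stat6 the assemblies did not repeat the separation seen in the counts: controls held 57.6 to 73.4 TPM and diabetic libraries 50.7 to 85.01 TPM. The highest was diabetic 4, the only library in which none of the transcripts assembled there carried the reference gene's name, and the other diabetic libraries held 50.7 to 57.6 TPM. The other 6 genes had no reference transcript in the assemblies and were not placed.

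Among the other inhibitors, 15 genes were tested, 0 passed the adjusted threshold, and 2 (lower) and 0 (higher) had an unadjusted p below 0.05, against 10.0% and 8.94% of all tested genes. Both of these were SOCS genes not otherwise followed here. Socs5 was at 53.8 to 71.1 CPM in control and 36.2 to 47.3 CPM in diabetic libraries (log2FC -0.58, SE 0.17, edgeR adjusted p = 0.0892). Socs6 was at 57.3 to 64.6 CPM and 44.5 to 53.5 CPM (log2FC -0.32, SE 0.12, edgeR adjusted p = 0.124). For both genes the groups did not overlap. The phosphatase genes Ptpn6 (758 and 801 CPM) and Ptprc (720 and 634 CPM), whose products remove phosphate from these proteins, had adjusted p-values of 0.670 and 0.330 in the quasi-likelihood test.

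Other ligands of the pathway had few counts. Of 14 on the list, Ifng, Il4, Il13, Csf2 and Csf3 had no counts in any library, 4 had too few to test and 5 were tested, of which 0 passed. Ebi3, the shared subunit of interleukin-27 and interleukin-35, had 23.8 and 32.5 CPM in controls 4 and 6, 8.34 to 10.3 CPM in the other controls and 6.85 to 10.5 CPM in diabetic libraries (log2FC -0.99, SE 0.50, edgeR adjusted p = 0.260). Without controls 4 and 6 its log2FC was -0.13 (edgeR adjusted p = 0.817). Lif, a cytokine that also uses gp130, had 55 and 47 counts in controls 4 and 6, 0 to 8 in the other controls and 5 to 42 in diabetic libraries, and its log2FC went from -0.42 to 2.36 without controls 4 and 6 (edgeR adjusted p = 0.256).

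With all libraries kept, genes that STAT3, STAT5 or STAT6 are known to switch on did not move in 1 direction. Of 15 on the list 12 were tested, 0 passed, 7 had log2FCs above 0 and 5 below, and the median was 0.13. That mix depended on controls 4 and 6. Without them all 12 had log2FCs above 0, where 50.6% of all tested genes were below 0, and 0 passed. These log2FCs ran from 0.054 (Timp1) to 1.80 (Pim1), both genes named after their values were seen. Lrg1, a secreted glycoprotein induced by STAT3, had the largest log2FC above 0, 2.22 (SE 0.92, edgeR adjusted p = 0.173), with controls at 0.753 to 8.03 CPM and diabetic libraries at 8.07 to 25.4 CPM. Neutrophils also express Lrg1, and the neutrophil shares given above moved with it; their part was not tested. Cebpd, a transcription factor of the acute phase response, was at 4.70 and 8.07 CPM (log2FC 0.78, SE 0.30, edgeR adjusted p = 0.149). Mrc1, the mannose receptor induced by STAT6 and also a gene of the border myeloid list, was at 60.8 and 101 CPM (log2FC 0.73, edgeR adjusted p = 0.288). The largest log2FCs below 0 were those of the transcriptional regulators Bcl6 (-1.44, edgeR adjusted p = 0.399) and Bcl3 (-1.06, edgeR adjusted p = 0.530), named after their values were seen. Both were highest in controls 4 and 6, at 57.9 and 86.6 CPM for Bcl6 and at 52.6 and 72.8 CPM for Bcl3, and without these libraries their log2FCs were 0.37 and 0.85. Over the 5 lists together 53 genes were tested, 0 passed, 5 (higher) and 5 (lower) had an unadjusted p below 0.05, and the median log2FC was -0.034. At that unadjusted threshold 18.9% of all tested genes were past it.

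**Figure D4:**
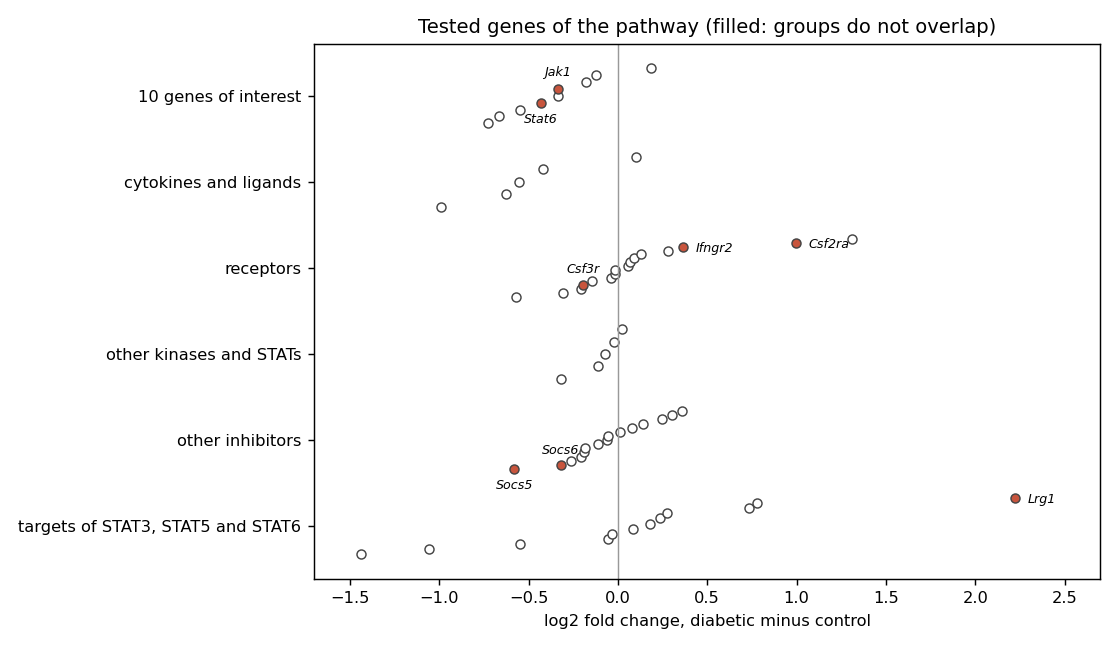
Log2FCs (x axis, diabetic minus control) of every tested gene of the 10 and of the 5 further lists, one point per gene, filled and named where the groups do not overlap. Filled points lie on both sides of 0: Csf2ra (1.00), Ifngr2 (0.36) and Lrg1 (2.22) above, and Jak1 (-0.34), Stat6 (-0.43), Socs5 (-0.58), Socs6 (-0.32) and Csf3r (-0.19, named after its values were seen) below.

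Genes whose levels followed the 10 most closely over the 9 libraries were named by Spearman's rho of log2 CPM, which is a description over few libraries and 11748 genes. Ier5, Ier3 and Id2 ranked the libraries as Osm did (rho = 1), and Ier3 is on the cell isolation list. For Socs3 the closest were Tnfsf9, Ppard and Gadd45b (rho = 0.98), for Stat3 Bhlhe40 (rho = 1), and for Stat5a Tradd (rho = 0.98). Snx25 ranked the libraries as Jak1 did, Zc3hav1, Clip2 and Ints6 as Jak2 did, and Ggta1 as Stat6 did (rho = 1 each). For Il6 the closest was Ppp2r2b (rho = 0.97), and for Socs1 it was Crk (rho = 0.98).

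The authors' deposited table tested all 10 genes, Cish included, and called 0 of them at an adjusted p of 0.05, against 2.10% of its 12069 genes. In the authors' deposited table the smallest adjusted p among them was that of Jak2, 0.105, beside a log2FC of -0.58. For Stat6 and Jak1 the authors' deposited table gives log2FCs of -0.30 and -0.21 (adjusted p 0.481 and 0.655). When rounded, its log2FCs of Jak2, Stat6 and Jak1 equal those of the fit here without normalization factors. In that fit the median log2FC of all genes was 0.12, against 0.0017 with TMM factors, so the sizes are not on the same scale. For Cish the authors' deposited table gives -1.33 (adjusted p 0.452).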

How the data were processed

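Per the submitters' processing notes, TopHat2 2.0.14 and StringTie 1.2.4 were used on Rnor_6.0 and edgeR is named. Neither the counting program nor the strand it used is named in the sources used here. The authors deposited raw counts per gene symbol, and a table of log2 fold changes with their p-values, raw and adjusted. Assemblies per library hold TPM, per the file headers made by StringTie on the Ensembl annotation, and TPM of transcripts overlapping a locus was summed here. SmartSeq preamplified the RNA, and the labels name no molecular identifiers. The labels give every library the same flow cell and lane.

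Counts of 5 control and 4 diabetic libraries were filtered with filterByExpr (minimum count 10, total 15), scaled by TMM (factors 0.839 to 1.07) and tested with edgeR 4.0.16 in R 4.3.3 (quasi-likelihood, robust, no covariate). P-values were adjusted by Benjamini-Hochberg over all tested genes. Each SE was derived from the size of the log2 fold change and the normal quantile matching its p. Scripts were tested on simulated data. Alternatives used DESeq2 1.42.0 and limma 3.58.1 among others. The least chi-square per degree of freedom between 2 libraries was 11.7, so none was a duplicate. A floor is 3 counts. Named beyond the 10 genes were, per list, those past the threshold, the 3 of smallest p, the 3 of highest CPM, Il6r, Il6st, Osmr and Lifr, and the 3 genes most like each of the 10. The genes and lists were chosen with earlier results of these data known.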

Additional observations from a re-analysis of the deposited data

Results flagged for a closer look

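Of 98 groups of values examined for a library far from the rest (the levels of the 10 genes and of the named pathway genes, the shares of marker lists and the summed TPM), 2 were marked, and chance alone marks about 1 group in 20. Sh2b3, an adaptor that restrains Jak2, was at 273 CPM in diabetic 4 and at 316 to 322 CPM in the other diabetic libraries. Ccnd1, the gene of cyclin D1, was at 254 CPM in control 3 and at 179 to 198 CPM in the other controls. No group of the 10 genes was marked. The check looks for 1 far library and can miss 2 that stand apart together. Controls 4 and 6 did so for Osm (128 and 260 CPM) and Socs3 (80.5 and 134 CPM).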

How the results depend on the processing

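Over 22 alternatives Jak1, Jak2, Stat6, Stat5a and Socs1 kept their direction. Jak1 and Jak2 passed by the DESeq2 Wald test (adjusted p of 0.0381 and 0.0300), and Jak1, Jak2 and Stat6 passed with the cell isolation share as covariate (adjusted p of 0.0151, 0.00461 and 0.00654), with log2 fold changes of -0.40, -0.89 and -0.54. Over all alternatives their adjusted p-values ran up to 0.501, 0.533 and 0.501. The log2 fold change of Osm turned to 0.65 by limma-voom, 2.06 without controls 4 and 6, and 0.47 without control 6. That of Socs3 turned to 0.32, 1.16 and 0.32 in the same fits. Il6 turned to 0.021 without normalization factors, 0.12 without controls 4 and 6, and 0.13 without diabetic 4. Stat3 turned to 0.18 without controls 4 and 6. With the replicate block on numbers 1, 4 and 5 Osm was at 1.04 and Socs3 at 0.24, and in those 6 libraries without the block, an alternative added after the data were seen, they were at 0.20 and 0.051. Same-numbered libraries had correlations of 0.20, -0.11 and 0.016 in their deviations, and only diabetic 1 was closest to its own number, so the numbers were not taken as pairs. Leaving out 1 library moved Il6 between -0.45 and 0.13, Osm between -0.83 and 0.47, and Socs3 between -0.62 and 0.32. The cause of these changes was not tested.

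The 8 genes called over the whole table became 31 with upper-quartile factors, 29 without factors (median log2 fold change of all genes 0.12, against 0.0017), 42 without a filter, 5 with CPM above 1 in at least 3 libraries, 598 by DESeq2, 171 by the likelihood-ratio test, 4 by limma-voom, 3 without robust dispersion and 1595 with the covariate. Of the calls 5 of 8 were higher in diabetic libraries, and 27 of 31, 28 of 29, 29 of 42, 281 of 598, 136 of 171 and 591 of 1595 were in the upper-quartile, no-factor, no-filter, DESeq2, likelihood-ratio and covariate fits. The count was 0 without controls 4 and 6 (1775 genes at an unadjusted p below 0.05), 0 with the replicate block (1150) and 0 in its 6 libraries without the block (1249). Leaving out 1 library gave 0 to 75 calls: 75 without control 1, 1 without control 3 or 5, 2 without diabetic 2, and 0 without control 4, diabetic 1 or diabetic 4. Among the 62 tested genes of the 10 and the pathway lists 0 passed, where 0.0681% of all tested genes did. At an unadjusted p below 0.05 there were 13, against 18.9% of all. The number passing became 1 with upper-quartile factors (0.264% of all), 1 without factors (0.247%) and 1 without a filter (0.236%). It was 6 by DESeq2 (5.16% of all), 2 by the likelihood-ratio test (1.46%) and 14 with the covariate (13.6%). Without a filter and by DESeq2, 71 of these genes were in the fit. Leaving out 1 library gave 0 to 1, where 0% to 0.646% of all tested genes passed. Counts of 0 to 25 limit what can be said of Socs1 and Cish.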

Other observations

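With the cell isolation share as a covariate, 14 of the 62 tested genes of the pathway passed an adjusted p of 0.05 in edgeR's quasi-likelihood test, where 13.6% of all tested genes did. Of the 14, 4 were higher in diabetic libraries and 10 lower. The lower ones were Jak1, Jak2, Stat6, Socs5, Ebi3, Bcl3, Bcl6, Il2rg, Il4r and Ptpn2, and the higher ones were Csf2ra, Ifngr2, Lrg1 and Pias3. Bcl3, Bcl6, Il2rg, Il4r and Ptpn2 were named after their values were seen.

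Ifnb1, the gene of interferon-beta, and Il10, an anti-inflammatory cytokine that signals through STAT3, had too few counts to test and were named after their values were seen. For Ifnb1, control 4 had 31 counts, control 6 had 9, control 5 had 7 and the other controls 0, while diabetic libraries 1, 2, 4 and 5 had 1, 0, 0 and 8. For Il10, control 6 had 13 counts, diabetic 1 had 10, and every other library had 0 to 7.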
